A study of Saccharomyces cerevisiae with 14 samples.

Results

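The probe sets described here are those that the array's gene annotation, as paired with the deposited signals, assigns to no gene. They number 2443 of the 9275 yeast probe sets on the array, beside 6504 probe sets annotated to 1 gene and 328 annotated to several. They were chosen from the annotation alone, by the absence of a gene entry, and the 60 control probe sets of the manufacturer were set aside first. A probe set of this kind is unnamed here, which does not say that it matches no transcript: a reading frame dropped from later gene catalogues, a repeated element or a stretch between genes would all look the same in this annotation. The sequences of the probes and their places in the genome were not used here, so no member is given a gene or a position. The annotation itself is used only where it names a gene for a neighbouring or comparison probe set.

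Cells make RNA from more of the genome than its annotated genes. In budding yeast, chromatin that has been refolded behind RNA polymerase keeps transcription from starting inside and between genes, and enzymes such as the nuclear exosome destroy many of the short non-coding RNAs that are made all the same. The amino-terminal tails of histones H3 and H4 carry most of the acetylation and methylation sites through which such chromatin is regulated, and the H4 tail is also needed for silencing near chromosome ends and at the silent mating-type loci. Repeated elements such as the Ty retrotransposons, transfer RNA genes and the ribosomal DNA lie outside the single-copy protein-coding genes as well, and an array can hold many probe sets for one repeated sequence.

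RNA was measured on 14 arrays of budding yeast strains that carried their histone genes on plasmids. In 4 arrays, called H3del, histone H3 lacked residues 1 to 28, and the 4 H3WT arrays came from the matching strain with whole H3. In 3 arrays, called H4del, histone H4 lacked residues 2 to 26, and the 3 H4WT arrays came from the matching strain with whole H4. All 4 strains were in mid-log growth, in a complete synthetic medium without uracil. The H3 strains carried the histone on a plasmid marked with LEU2 and their medium also lacked leucine, whereas the H4 strains carried it on a plasmid marked with TRP1 and their medium also lacked tryptophan. The labels call the strains congenic and do not say how many clones or cultures stand behind the arrays of a group. The p-values below therefore rest on array-to-array variation alone, and that variation may be technical. The RNA came from whole cultures, so a change in the share of cells that hold a transcript and a change per cell cannot be told apart.

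The values are the signal intensities deposited by the authors on a linear scale. Every array had been scaled to the same average, and the number of arrays per group, 3 or 4, limits the precision of every value. Differences are given on the scale of log2(signal + 16.9), where 16.9 is the 10th percentile of all signals, so the changes of dim probe sets are understated. The plasmid markers matched the labels: the 3 probe sets of LEU2 were 2.33 to 3.66 higher on the log2 scale in H3WT than in H4WT, and that of TRP1 was lower by 2.73. The probe sets of the histone genes were not used to check the labels, since their place relative to the deletions was not known. Arrays had been hybridized on 5 days, and only 1 day held all 4 groups.

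Most probe sets without an annotated gene were dim. Their median wild-type signal, the mean of the H3WT and H4WT averages, was 54.1, with quartiles of 17.4 and 185, against a median of 782 with quartiles of 236 and 2114 for probe sets with 1 gene. In all, 795 members had a wild-type signal under 25, and 156 were at or under 16.9 on every array. At the other end 182 members were over 3200, and the brightest reached 20779. After the filter on low signals, which left out the dimmest 30% of all probe sets and lay at a signal of 126, 804 members (32.9%) and 5430 probe sets with 1 gene (83.5%) were tested. A member could pass that filter through 1 group: 7 tested members had a group average above it in a single group, of which 5 were in H4del. In 30 tested members both wild-type averages lay at or under the cutoff, so these passed through their signal in the deletions. The probe sets 9816_s_at, 9822_at and 10397_at, named below as rises, are among them. Counts over the 804 tested members are therefore not counts over all members, and the fit without the filter, which covers all 2443, is given beside them.

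The members as a whole were brighter in both tail deletions than in the matching wild type. The median signal over all 2443 members was 63.8, 61.8, 60 and 58.9 on the 4 H3del arrays and 47.8, 47.2, 44.9 and 49.6 on the 4 H3WT arrays. All H3del arrays lay above all H3WT arrays, and the log2 medians had a mean of 6.29 ± 0.04 (SD, n = 4) against 6.01 ± 0.04 (SD, n = 4). On the H4del arrays the median was 98.6, 91.4 and 79.7, and on the H4WT arrays 67.4, 50.5 and 56.8. All H4del arrays lay above all H4WT arrays, and the log2 medians had a mean of 6.73 ± 0.13 (SD, n = 3) against 6.23 ± 0.16 (SD, n = 3). The number of members over a signal of 100 was 898 to 959 in H3del and 775 to 861 in H3WT, and 1071 to 1209 in H4del and 861 to 981 in H4WT. The median log2 signal of the probe sets with 1 gene overlapped between H3del, at 9.54 to 9.76, and H3WT, at 9.54 to 9.77. In H4del it ran from 9.35 to 9.41 and in H4WT from 9.39 to 9.61, so these overlapped as well.

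**Figure D1:**
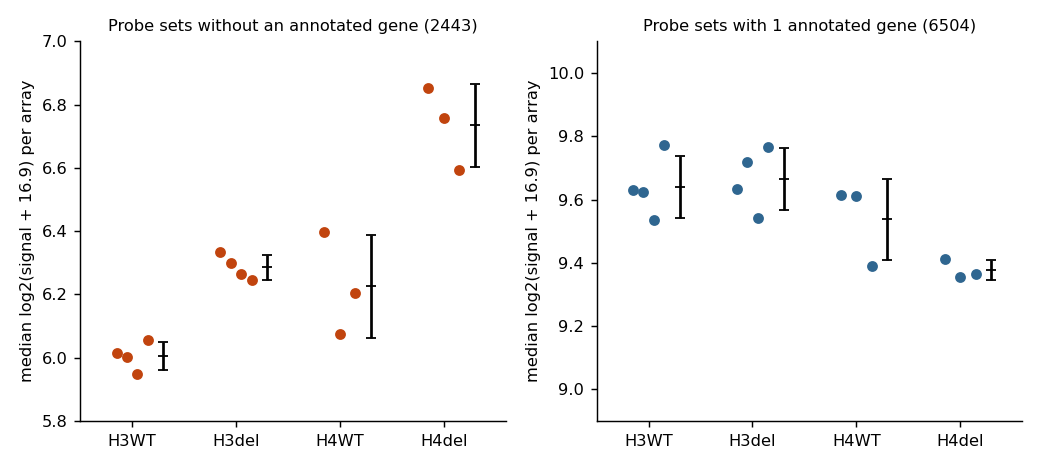
Median log2(signal + 16.9) on each of the 14 arrays, for probe sets without an annotated gene (left) and with 1 annotated gene (right); each point is an array, and the black marks are the group mean and SD. The axes cover different ranges of equal length and do not start at 0. Without a gene, both deletions lie above their own wild type with no overlap, whereas with 1 gene the groups overlap.

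Of 3 sets of control probe sets, those for ribosomal RNA and for added transcripts had higher median signals in both deletions too. The 10 controls for 18S and 25S ribosomal RNA had a median difference of 1.36 (range -0.01 to 2.66) in H3del and of 2.52 (range 0.55 to 3.37) in H4del, on the log2 scale. The 9 controls for the bacterial and phage transcripts that are added to each hybridization had a median difference of 0.24 (range 0.04 to 0.37) in H3del and of 0.30 (range -0.32 to 0.56) in H4del. The 13 controls for transcripts not of yeast or for the opposite strand lie near the lowest signals. Their median difference was 0.01 (range -0.26 to 0.44) in H3del and 0.16 (range -0.23 to 0.71) in H4del. The ratio of the 3′ to the 5′ actin control, a measure of RNA integrity, was 2.44 ± 0.61 (SD, n = 4) in H3del and 1.90 ± 0.25 (SD, n = 4) in H3WT, and 1.75 ± 0.23 (SD, n = 3) in H4del and 1.65 ± 0.17 (SD, n = 3) in H4WT. The part of these shifts in the members' differences was not tested.

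How far the members stand above 0 depended on how the arrays were scaled. Their median lay above that of the annotated probe sets as deposited and stayed above it under quantile normalization. The other scalings tried leave little or no room for that gap to change. As deposited, the median log2 difference over all 2443 members was 0.15 in H3del and 0.37 in H4del, against 0.01 and -0.08 over the 6504 probe sets with 1 gene. Quantile normalization gave members -0.00165 in H3del and 0.12 in H4del, against -0.04 and -0.09. Scaling to the 9 hybridization controls, an alternative added after the data were seen, gave members 0.01 and 0.18, against -0.19 and -0.33, and moved the median of all 9275 probe sets to -0.13 and -0.17 from 0.06 and 0.05. Centring on the annotated probe sets gave members 0.16 and 0.57 and moved the median of all probe sets in H4del to 0.25. Members minus probe sets with 1 gene came to 0.14 in H3del and 0.46 in H4del as deposited. Under quantile normalization this gap was 0.04 and 0.21. Centring shifts both classes alike on each array, so it cannot change the gap. Scaling to the hybridization controls multiplies each array by a common factor. It can change the gap only through the value added before the logarithm, and gave 0.21 and 0.51. Neither of these is a separate check of the gap. Within hybridization days the members' median difference was 0.14, 0.20 and 0.06 on the 3 days with both H3 groups, and 0.34 and 0.22 on the 2 days with both H4 groups.

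In H3del, 61 of the 804 tested members rose and 18 fell past an adjusted p of 0.05 (limma with Benjamini-Hochberg adjustment over 6492 probe sets). These are 7.59% and 2.24% of the tested members, where 5.21% of all tested probe sets rose and 2.46% fell. The share that fell lay near that background. Of the 5430 tested probe sets with 1 gene 238 rose and 140 fell, or 4.38% and 2.58%. In the fit of all 2443 members without the filter 166 rose and 24 fell, where 5.66% of all probe sets rose and 1.78% fell. With the replicate number as a block 93 members rose and 34 fell, where 9.33% and 6.76% of all tested probe sets did. With the hybridization day as a block 105 rose and 43 fell, where 11.3% and 9.33% did. Rises made up 77.2% of the called members as deposited, 66.2% under quantile normalization (43 rises, 22 falls) and 62.5% scaled to the hybridization controls (10 rises, 6 falls). For probe sets with 1 gene these shares were 63.0%, 57.0% and 69.8%, so under the last scaling the members' share was the lower one. The falls came to 11 without H3del replicate 1, without H3WT replicate 1 or without H3WT replicate 2.

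At equal wild-type signal under 1600, the members and the annotated probe sets of H3del had median differences within 0.10 of each other. In the bin of wild-type signal under 25 the median was 0.11 for 795 members and 0.13 for 395 probe sets with 1 gene. Between 25 and 50 it was 0.22 for 382 members and 0.21 for 253 with 1 gene. From 50 to 100 it was 0.21 and 0.17, from 100 to 200 it was 0.21 and 0.11, and from 200 to 400 it was 0.11 and 0.10. Between 400 and 1600 both classes lay between -0.02 and 0.04. From 1600 to 3200 it was 0.07 and -0.09. Over 3200, 182 members had a median of 0.16 with quartiles of 0.07 and 0.23, and 1125 probe sets with 1 gene had -0.05 with quartiles of -0.23 and 0.11. As deposited, dim annotated probe sets and dim members were both brighter in H3del. That direction depended on the scaling: the members' median was above 0 in 9 of 9 bins as deposited, in 2 under quantile normalization and in 4 scaled to the hybridization controls. These medians are a description with no test, and the bins rest on wild-type arrays that also enter the difference. On bins set by H4WT alone, whose arrays do not enter it, no bin median of the members moved by more than the spread between replicate arrays, 0.11.

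**Figure D2:**
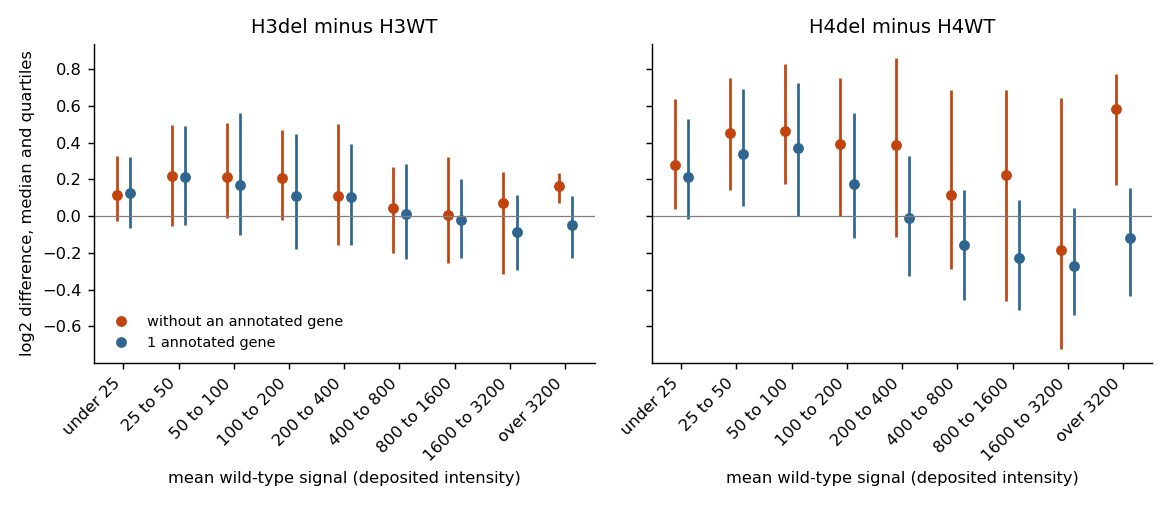
Log2 difference against wild-type signal in 9 bins for H3del minus H3WT (left) and H4del minus H4WT (right); points are medians and bars the quartiles over probe sets, for probe sets without an annotated gene and with 1 gene. In H3del the classes part most over 3200, by 0.21, and in H4del members lie above annotated probe sets in all 9 bins.

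In H4del, 200 of the 804 tested members rose and 32 fell past an adjusted p of 0.05 (limma, Benjamini-Hochberg). These are 24.9% and 3.98%, where 7.79% of all tested probe sets rose and 9.67% fell. Of the 5430 tested probe sets with 1 gene 266 rose and 584 fell, or 4.90% and 10.8%, so the annotated probe sets had more falls than rises and the members more rises than falls. In the fit without the filter 424 of 2443 members rose and 35 fell, where 8.87% of all probe sets rose and 6.73% fell. In size, 119 tested members were more than 2-fold higher and 19 more than 2-fold lower. With the replicate number as a block 335 members rose and 64 fell, where 14.2% and 18.8% of all tested probe sets did. With the hybridization day as a block, which wholly absorbs H4WT replicate 2 since it is alone on its day, 276 rose and 61 fell, where 12.5% and 17.3% did.

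The H4del counts moved with the scaling and with single arrays. Scaled to the hybridization controls 18 members rose and 8 fell, so that 69.2% of the called members were rises in place of 86.2%, and the probe sets with 1 gene had 18 rises and 57 falls. Under quantile normalization 192 members rose and 36 fell, and centred on the annotated probe sets 270 rose and 16 fell. Without H4WT replicate 2 the rises came to 106, without H4del replicate 1 to 116, without H4del replicate 2 to 122 and without H4WT replicate 1 to 127. Without these arrays in the same order the falls came to 15, 18, 18 and 19.

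Members of H4del stood above annotated probe sets of equal wild-type signal in all 9 bins, by 0.07 to 0.70. In H3del they did so in 8 of 9 bins, with differences of -0.01 to 0.21. Under a signal of 100 both classes were brighter in H4del: the median difference was 0.28, 0.45 and 0.46 for members in the 3 dimmest bins and 0.21, 0.34 and 0.37 for probe sets with 1 gene. From 100 to 200 members had 0.39 and annotated probe sets 0.17. From 200 to 400 members kept a median of 0.39 (163 members) while annotated probe sets had -0.01. From 400 to 800 the medians were 0.11 and -0.16, and from 800 to 1600 they were 0.22 and -0.23. In the bin from 1600 to 3200, with 52 members, the medians were -0.18 and -0.27, with 12 members risen and 12 fallen. Of the 929 probe sets with 1 gene in that bin 37 rose and 129 fell. Over 3200 the medians were 0.58 and -0.12, the widest gap of the 9 bins at 0.70. On bins set by H3WT alone, no bin median of the members moved by more than 0.11. Under quantile normalization members stayed above annotated probe sets in all 9 bins of H4del, with a gap over 3200 of 0.65. Centring cannot change these gaps. Scaling to the hybridization controls can do so only through the value added before the logarithm, and left the gap over 3200 at 0.70.

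The bright members were mostly of one kind, which is seen from the numbers and endings of their IDs. The ending of an ID tells how its probes were chosen, and an ID that ends in _f_at marks probes shared by a family of sequences. Among the 2443 members 1861 IDs ended in a plain _at, 290 in _f_at, 142 in _i_at, 69 in _s_at, 43 in _r_at and 38 in _g_at. Of the 182 members over 3200, 125 ended in _f_at. Of the same 182, 132 had IDs between 3000 and 3999, and the other 50 had IDs of 4000 or above. Annotated probe sets with that ending also stood apart in H4del: the 194 of them had a median difference of 0.59 and the 290 members 0.68, against -0.12 and 0.33 for plain _at. In the ID range from 3000 to 3999, 542 of 948 probe sets, or 57.2%, had no annotated gene, against 20.3% of the 7437 with an ID of 4000 or above and 44.3% of the 890 below 3000. The 263 probe sets of the range that do have 1 gene belong in part to repeated families: 92 were annotated to transfer RNA genes, 6 to ribosomal RNA and 23 to YGR109W-B, which encodes the Gag-Pol polyprotein of the retrotransposon Ty3. These ranges of IDs were chosen after the values were seen.

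In H4del the 3000 to 3999 range stood apart, and its annotated probe sets stood apart with its members. Its 542 members had a median log2 difference of 0.60 with quartiles of 0.23 and 0.90, and its 263 probe sets with 1 gene had 0.53 with quartiles of 0.07 and 0.87. Of the 236 tested members in the range 110 rose in H4del and 3 fell. The 249 members of the range that end in _f_at had a median of 0.71, and 96 of the 189 tested among them rose and 1 fell. The 92 annotated transfer RNA probe sets had a median of 0.75 and those of YGR109W-B 0.60. At IDs of 4000 or above 1507 members had a median of 0.32 with quartiles of 0.00 and 0.68, whereas 5760 probe sets with 1 gene had -0.12 with quartiles of -0.43 and 0.20. There 83 of 534 tested members rose and 27 fell. Of all tested probe sets 7.79% rose and 9.67% fell in H4del. In H3del the medians of the members were 0.16 in the 3000 to 3999 range and 0.14 at 4000 or above, and 9 of 236 and 50 of 534 tested members rose. Of all tested probe sets 5.21% rose in H3del, so the 9 of 236 are a lower share and the 50 of 534 a higher one.

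The 132 bright members of the range varied between the arrays of a group. Their median log2 signal was 13.03, 13.04 and 13.29 on the H4del arrays and 12.39, 12.12 and 12.93 on the H4WT arrays. The H4del arrays were all higher, and H4WT replicate 3, hybridized on the day that held all 4 groups, came closest. On the H3del arrays it was 12.56, 12.30, 13.00 and 12.68 and on the H3WT arrays 12.22, 12.30, 12.58 and 12.69, which overlap. Replicate 3, hybridized on that same shared day, was the highest array in H3del, and replicate 4 in H3WT. None of the 132 rose past the threshold in H3del and 3 fell, whereas 54 rose in H4del and none fell. Of all tested probe sets 5.21% rose and 2.46% fell in H3del, and 7.79% rose and 9.67% fell in H4del. The other 50 members over 3200 had a median difference of -0.19 in H4del, with 1 risen and 7 fallen, and of 0.00 in H3del. The annotated probe sets over 3200 had per-array medians of 12.40 to 12.43 in H4del and 12.53 to 12.58 in H4WT.

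**Figure D3:**
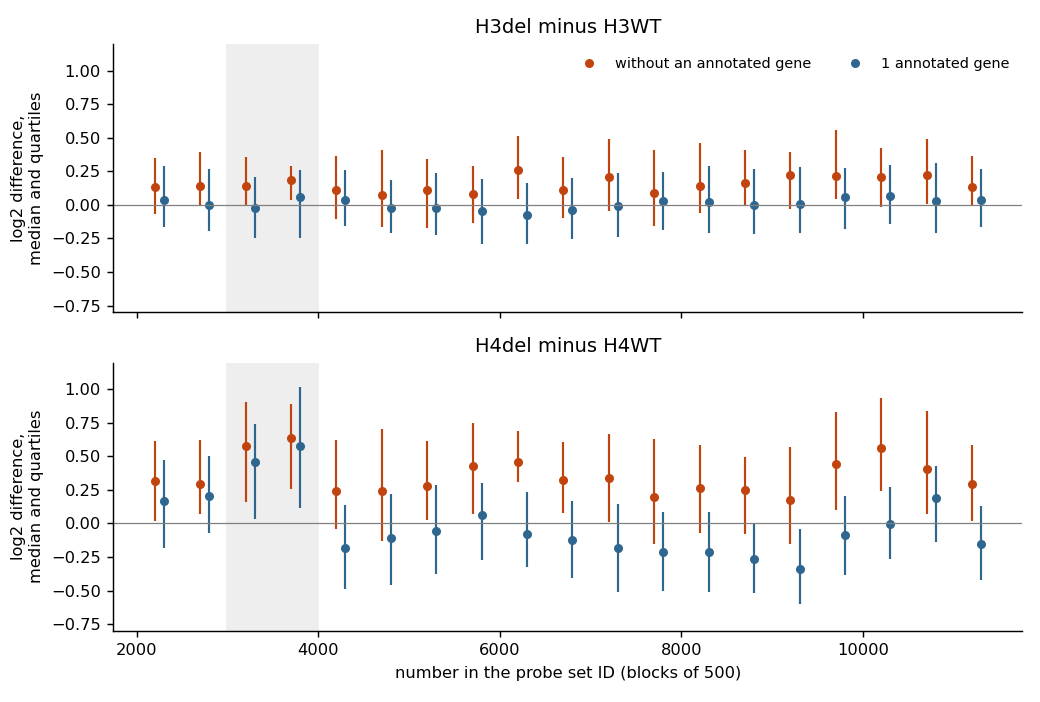
Log2 difference of H3del minus H3WT (top) and H4del minus H4WT (bottom) by the number in the probe set ID, in blocks of 500; points are medians and bars quartiles, for probe sets without an annotated gene and with 1 gene, and IDs 3000 to 3999 are shaded. In H4del the members' medians of the 2 shaded blocks are 0.58 and 0.64, those of the other 17 blocks run from 0.18 to 0.56, and annotated probe sets are raised in the shaded blocks too.

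Outside that range the difference in H4del was spread over the whole series of IDs. In the 17 other blocks of 500 the members' medians ran from 0.18 to 0.56, each above that of the annotated probe sets of its own block. In H3del the medians of the same 17 blocks ran from 0.07 to 0.26. From 4000 upwards consecutive IDs follow the genes along the chromosomes: of 5565 consecutive pairs of annotated probe sets of different genes 98.7% lie on the same chromosome and 90.6% start within 10 kb of each other, by the RefSeq table of assembly R64. In the 3000 to 3999 range these shares were 57.3% and 17.1%, so ID order says little about position there. A member above 4000 can thus be set beside its annotated neighbours in ID order, which is no statement of its own position. For 423 members with an annotated probe set next to them on both sides, the median difference was 0.24 in H3del and 0.37 in H4del, against 0.00 and -0.13 for the mean of the 2 neighbours. The member stood above its neighbours in 307 of the 423 in H3del and in 366 in H4del. This comparison is not matched on signal: at these IDs the median wild-type signal was 66.5 for members and 909.8 for annotated probe sets. In H3del dim annotated probe sets had differences close to those of dim members. In H4del, over all IDs at a wild-type signal of 50 to 100, the medians were 0.46 for members and 0.37 for annotated probe sets. By length of the run of consecutive members, the H4del medians were 0.37 for 548 members in runs of 1 or 2, 0.29 for 395 in runs of 3 to 9 and 0.27 for 564 in longer runs.

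The 2 deletions shared part of their called members. Of the 61 members that rose in H3del 31 also rose in H4del, which is 50.8% of the H3del rises and 15.5% of the 200 H4del rises. For comparison, 24.9% of all 804 tested members rose in H4del and 7.59% in H3del. The 61 had a median difference of 0.84 in H4del, and the 200 had a median of 0.24 in H3del. Of the 18 that fell in H3del 5 also fell in H4del, and they were 3259_at, 4009_at, 5447_at, 6775_at and 8153_at. Members called in opposite directions were 10401_at, which fell in H3del by 0.85 ± 0.22 (SE) and rose in H4del by 0.99 ± 0.26, and 7505_at, which rose in H3del by 0.72 ± 0.18 and fell in H4del by 0.88 ± 0.21. These were singled out after their values were seen. Each deletion is compared with its own wild type, but all 14 arrays share one estimate of the spread, so the counts are not independent: the H4del rises came to 168 without H3del replicate 1, and the H3del rises to 54 without H4del replicate 2.

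**Figure D4:**
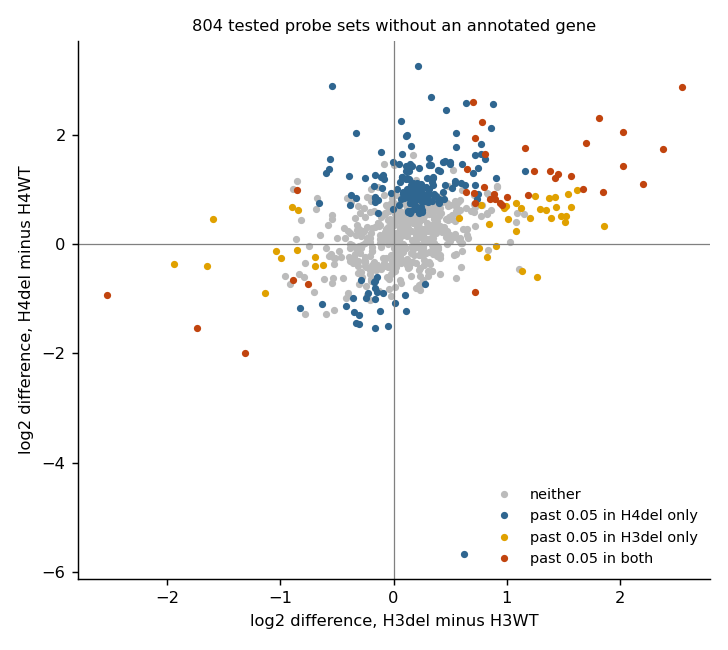
Log2 difference in H4del (vertical) against that in H3del (horizontal) for the 804 tested probe sets without an annotated gene; each point is a probe set, coloured by whether it passed an adjusted p of 0.05 in neither, either or both deletions. The 200 that rose in H4del had a median of 0.24 in H3del, and the lowest point in H4del is 3994_at.

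Of the 10 members that rose most in H3del, 9 also rose in H4del. The probe set 9816_s_at had signals of 938, 772, 479 and 195 on the H3del arrays against 74.7, 82.2, 71.4 and 68.1 on the H3WT arrays. The arrays did not overlap, and the difference was 2.55 ± 0.46 on the log2 scale (SE, n = 4 and 4, limma adjusted p = 0.00211). In H4del the same probe set gave 547, 2579 and 732 against 180.4, 101 and 103 in H4WT, a rise of 2.88 ± 0.53 (adjusted p = 0.00271). Its most alike annotated probe set over the 14 arrays was that of SPO75, a gene of sporulation, with a mean absolute difference of 0.44 between the centred log2 profiles. The probe set 7496_at gave 1449, 1580.2, 950.2 and 885 in H3del and 408, 328, 198 and 219 in H3WT. It rose by 2.03 ± 0.25 in H3del and by 2.06 ± 0.29 in H4del (limma adjusted p = 7.67e-05 and 0.000361). The probe set 3545_i_at rose by 2.38 ± 0.29 in H3del and by 1.74 ± 0.33 in H4del, and its most alike annotated probe set was that of SHC1 (mean absolute difference 0.28). The probe set 9822_at rose by 2.21 ± 0.27 and 1.10 ± 0.31, and its most alike was that of SDH9 (0.28).

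The exception among the 10 was 10813_s_at, for which the deletions differed by their own test. The probe set 10813_s_at gave 1049, 1008, 821 and 946 in H3del and 207, 271, 217 and 324 in H3WT, with every H3del array above every H3WT array. It rose by 1.86 ± 0.18 in H3del (limma adjusted p = 8.37e-06). In H4del it gave 422, 545 and 552 and in H4WT 423, 439 and 336, groups that overlap, with a difference of 0.33 ± 0.21 (adjusted p = 0.301). The H3 effect exceeded the H4 effect by 1.53 ± 0.28 (adjusted p = 0.00735). The other named rises of H3del were 4598_g_at, 7431_at, 4600_at, 3204_at and 10397_at, with log2 differences of 1.67 to 2.03, and all 5 rose in H4del as well, by 0.95 to 2.32. All 10 named rises had the same sign within each of the 3 days that held both H3 groups. Members were named only where the arrays did not overlap, so that sign was fixed by the choice.

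The largest fall in H3del was that of 3259_at. It gave 489, 511, 370.5 and 632 in H3del and 3634, 4037, 2190.4 and 2271 in H3WT. That is a fall of 2.53 ± 0.23 on the log2 scale (limma adjusted p = 4.5e-06), and every H3del array lay below every H3WT array. In H4del it gave 1531, 969 and 1412 against 2435, 2517 and 2447 in H4WT, a fall of 0.94 ± 0.26 (adjusted p = 0.0248), and the H3 effect minus the H4 effect was -1.59 ± 0.35 (adjusted p = 0.0203). Its ID lies between 2 probe sets annotated to YGR109W-B, and its most alike annotated probe set was that of ATF2, an alcohol acetyltransferase gene (mean absolute difference 0.45). The probe set 8153_at fell in both deletions by similar amounts. It gave 392, 439, 398 and 386 in H3del against 1174, 1426, 1503 and 1446 in H3WT, and 360.5, 305 and 412 in H4del against 1160.2, 893 and 1173 in H4WT. The falls were 1.73 ± 0.16 (limma adjusted p = 5.25e-06) and 1.54 ± 0.18 (adjusted p = 8.43e-05), and the H3 effect minus the H4 effect was -0.20 ± 0.24 (SE, adjusted p = 0.686).

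A run of neighbouring IDs fell in H3del. The probe sets 3952_at, 3953_at and 3954_at lie in a run of 5 members between annotated probe sets of RHO5, a small GTPase of the cell wall stress pathway, and of ATP8, a mitochondrial gene. In H3del 3954_at gave 1349, 1003, 967 and 1418, against 5237, 6089, 2625 and 5017 in H3WT, a fall of 1.94 ± 0.29 (limma adjusted p = 0.00044). The falls of 3952_at and 3953_at were 1.65 ± 0.27 and 1.59 ± 0.28 (adjusted p = 0.00105 and 0.00166). In H4del none of the 3 passed the threshold, with differences of -0.40 ± 0.31 for 3952_at, 0.45 ± 0.32 for 3953_at and -0.37 ± 0.33 for 3954_at. The difference between the deletions passed for 3953_at, at -2.05 ± 0.43 (limma adjusted p = 0.017). It did not pass for 3952_at (limma adjusted p = 0.1) or 3954_at (limma adjusted p = 0.0595). The most alike annotated probe set of 3954_at was that of KTR2 (0.44) and that of 8153_at was YOL014W (0.33). The other named falls were 4009_at, 5895_at, 8762_at, 5274_at and 3316_f_at, with differences of -1.32 to -0.90.

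**Figure D5:**
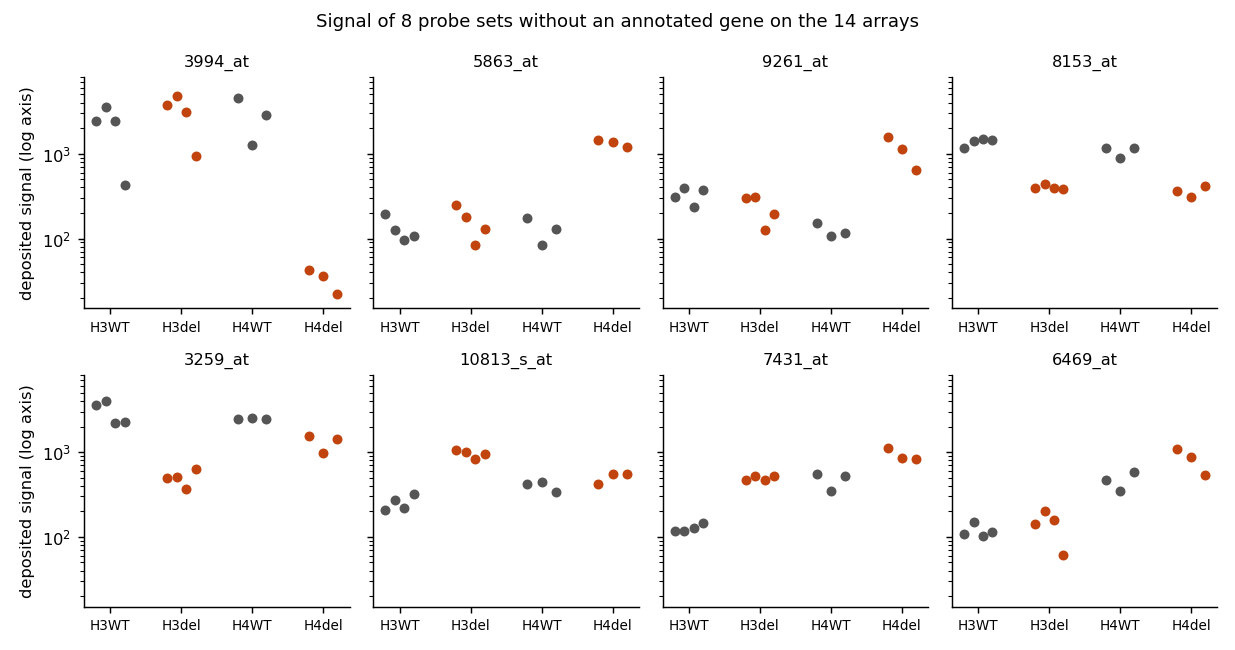
Deposited signal on a log axis of 8 probe sets without an annotated gene on the 14 arrays, by group; each point is an array, in grey for wild types and red for deletions. 3994_at is under 50 on all H4del arrays, 5863_at and 9261_at are highest on the H4del arrays, 8153_at is low in both deletions, and 6469_at is higher in both H4 groups than in both H3 groups.

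In H4del the largest rise among the members was that of 5863_at. It gave 1464, 1374 and 1200.3 in H4del and 176, 83.3 and 128 in H4WT, a rise of 3.27 ± 0.34 (limma adjusted p = 2.08e-05). In H3del it gave 252, 181, 83.7 and 131 and in H3WT 196, 127, 96.3 and 107, which overlap. The H3 effect was below the H4 effect by -3.05 ± 0.45 (adjusted p = 0.00141). The most alike annotated probe set was that of RDN5-3, a gene of the 5S ribosomal RNA (mean absolute difference 0.42), which itself rose by 2.22 in H4del. It was chosen for likeness over the same arrays, so the shared rise is no separate observation. The probe set 9261_at gave 1562, 1145 and 639.6 in H4del and 154, 108 and 117 in H4WT, a rise of 2.91 ± 0.35 (limma adjusted p = 8.34e-05). It was higher in H3WT than in H4WT, with 313, 399.7, 238 and 376, and its H3del arrays, with 301, 307, 125 and 194, overlapped H3WT. Its most alike annotated probe set was that of AIM4 (0.42).

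Other large rises in H4del differed in how firmly the arrays set them apart. The probe set 3777_f_at, whose nearest annotated ID below is that of RDN5-3, gave 848, 1003 and 944 in H4del and 154, 121 and 145 in H4WT. It rose by 2.60 ± 0.20 in H4del (limma adjusted p = 8.16e-07) and by 0.70 ± 0.18 in H3del (adjusted p = 0.0219). The probe set 3913_s_at gave 6059, 10228 and 4694 in H4del and 2107, 241 and 2504 in H4WT, so a single low wild-type array lay beside 2 higher ones. Its rise was 2.58 ± 0.81 (limma adjusted p = 0.0392), and it no longer passed the threshold without H4WT replicate 2, where it was 1.52, or without any 1 of the 3 H4del arrays, where it was 2.26 to 2.82. The probe set 8067_i_at behaved alike, with 6639, 10002 and 8567 in H4del and 2702, 577 and 3191 in H4WT, and its rise of 2.26 ± 0.72 (adjusted p = 0.0409) came to 1.49 without that array and lost the call without it and without 7 other arrays, each left out in turn. The remaining named rises, 11272_at, 5080_at, 8044_at and 4600_at, ran from 2.32 to 2.69. All 10 named rises had the same sign within both days that held both H4 groups, which the choice of members without overlap fixed here too.

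The largest fall of any member was that of 3994_at in H4del. It gave 42.2, 36.3 and 22.5 on the H4del arrays and 4549, 1260.2 and 2839 on the H4WT arrays. The difference was -5.68 ± 0.69 on the log2 scale (limma adjusted p = 9.6e-05). The H4del signals lay near the lowest on the arrays, where the added 16.9 sets much of that size. In H3del it gave 3706, 4856, 3094 and 934 and in H3WT 2444, 3599.9, 2408 and 423, which overlap, with replicate 4 lowest in both groups. The H3 effect exceeded the H4 effect by 6.30 ± 0.92 (adjusted p = 0.00121). Its ID is 1 above that of a probe set of OLI1 that did not fall with it, whose differences were 0.51 in H4del and 0.62 in H3del. The most alike annotated probe set of 3994_at was one of COX1, which fell by 6.65 (mean absolute difference 0.79). That match too was chosen over the arrays that show the fall. OLI1 and COX1 are genes of the mitochondrial genome, for a subunit of the ATP synthase and of cytochrome oxidase.

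The stretch of IDs around 3994_at holds other members, most of them near the lowest signals. The annotated probe sets of mitochondrial genes span the IDs 3956 to 4008, a stretch picked after the values were seen, with 28 probe sets of 1 gene and 19 members. The median wild-type signal of the 19 members was 3.33, under the value of 16.9 added before the logarithm. In H4del 5 of the 19 were more than 2-fold lower, and besides 3994_at they were 3977_i_at, 3995_i_at, 3966_i_at and 3997_at, at -2.30, -1.82, -1.56 and -1.52. Of these 3995_i_at passed the threshold in the fit without the filter (limma adjusted p = 0.0238), as did 3994_at, and the other 3 did not (adjusted p = 0.144, 0.147 and 0.106). The annotated probe sets of the stretch had 9 of 28 more than 2-fold lower, 6 of them past the threshold. In that fit 6.73% of all probe sets fell in H4del. The ID after the stretch, 4009_at, fell in both deletions. It gave 135, 125 and 217 in H4del against 621, 565 and 837 in H4WT, and 279, 246, 520.5 and 554 in H3del against 866, 695, 1349.9 and 1049 in H3WT. The falls were 1.99 ± 0.33 in H4del (adjusted p = 0.00121) and 1.32 ± 0.28 in H3del (adjusted p = 0.00771), and its most alike annotated probe set was that of YDR222W (0.29).

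A group of 4 members that fell in H4del had much the same pattern over the arrays. The probe set 8797_f_at gave 612, 1056 and 676 in H4del and 2086, 2389 and 1896 in H4WT. The probe set 7513_f_at gave 667, 1039.6 and 599 in H4del and 2139, 2167 and 1874 in H4WT. Together with 8752_f_at and 4692_f_at they fell by 1.25 to 1.46 (limma adjusted p = 0.00449 to 0.0244), and in H3del and H3WT all 4 had their lowest signal on replicate 4. Their endings mark probes shared by a sequence family, so they may read the same transcripts and are not independent of each other. The remaining named falls were 2822_at, 2303_f_at and 6963_at, at -1.54, -1.49 and -1.22, and the most alike annotated probe set of 2822_at was that of MPP6, a cofactor of the nuclear exosome (0.27). The fall of 2822_at came to 1.22 without H4WT replicate 1 and to 1.34 without H4WT replicate 2, and passed the threshold in neither.

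The difference between the 2 tail effects passed the threshold for few of the 804 tested members. In 27 the H3 effect was below the H4 effect and in 7 above it, where 1.28% and 2.4% of all tested probe sets lay below and above. These are 3.36% and 0.871% of the tested members. Members with a higher H3 effect made up 20.6% of those called, against 9.84% when centred on the annotated probe sets and 33.3% of 3 when scaled to the hybridization controls. With the replicate block 118 lay below and 31 above, where 6.07% and 9.87% of all tested probe sets did. With the day block 103 lay below and 35 above, where 6.15% and 10.5% did. Without the filter 58 of 2443 lay below and 13 above, where 1.23% and 1.71% of all probe sets did. Beside those already given, 3463_at had 440.2, 461 and 583 in H4del and 95.1, 99.7 and 129.7 in H4WT, and it lay between 76.1 and 169 on all H3 arrays. It rose in H4del by 2.03 ± 0.24, and its difference between the effects was -2.36 ± 0.32 (limma adjusted p = 0.000678). In the other direction 3407_at rose in H3del by 1.13 ± 0.21, with 467, 471, 359 and 528 against 178, 158, 262 and 204, and the effects differed by 1.62 ± 0.32 (adjusted p = 0.0138). For 9220_r_at the effects differed by 1.87 ± 0.45 (adjusted p = 0.0321). Leaving out arrays moved the count of members with a lower H3 effect between 13, without H4del replicate 1, and 46, without H4WT replicate 3, and it was 16 without H4WT replicate 2.

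The 2 wild types, which differ in plasmid marker and medium, differed in few members. Of the 804 tested members 8 were higher and 26 lower in H3WT than in H4WT, where 1.23% and 2.17% of all tested probe sets were. These are 0.995% and 3.23%. With the replicate block 18 were higher and 41 lower, where 3.8% and 4.07% of all tested probe sets were. With the day block 6 were higher and 27 lower, where 1.42% and 2.39% were. Without the filter 10 of 2443 were higher and 60 lower, where 0.798% and 2.05% of all probe sets were. The higher members were 23.5% of those called, against 10% when centred on the annotated probe sets. The median over all 2443 members was -0.11 and over the probe sets with 1 gene 0.03. Scaled to the hybridization controls the median of the members was 0.11 and that of all probe sets 0.29, with 0 members called higher and 3 lower in limma. The lower members included 6469_at, whose ID is next to that of TRP1, the marker of the H4 plasmid and an enzyme of tryptophan synthesis. It gave 109.5, 149, 103 and 113 in H3WT and 474, 344 and 590.2 in H4WT, a difference of -1.82 ± 0.33 (limma adjusted p = 0.00404), and was also high in H4del, with 1099, 875 and 536. On the other side of 6469_at in ID order, the probe set of GAL3 differed by -0.01.

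The other named members of that comparison were not next to the plasmid markers in ID order. The probe sets 9219_i_at and 9220_r_at, whose IDs are consecutive, were lower in H3WT, with differences of -2.28 ± 0.36 and -2.44 ± 0.32 (limma adjusted p = 0.0017 and 0.00048). In 9220_r_at the signals were 178, 179.5, 129.6 and 348 in H3WT and 1044, 1069.9 and 1329 in H4WT, and H3del, with 401 to 568, lay between. The probe set 10807_at had a difference of -2.32 ± 0.30 and 7431_at one of -1.76 ± 0.19. The 5 named members that were higher in H3WT were 5478_i_at, 3777_f_at, 9261_at, 7018_at and 4591_at, by 0.84 to 1.45. The bright 7018_at gave 7195, 6188, 8521 and 6422 in H3WT and 2859.8, 3474 and 4021 in H4WT. Of these 10 named members 7 kept an adjusted p under 0.05 whichever array was left out.

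Below the filter, members that were close to the lowest signals in a wild type rose in a deletion. In H3del 7054_i_at gave 353, 238, 176 and 116 against 6.9, 9, 4.6 and 5.9 in H3WT, and rose by 3.24 ± 0.49 in the fit without the filter (limma adjusted p = 0.000593). Its H4WT arrays, with 221, 14.8 and 139, did not share that low level. In H4del 3486_at gave 136, 129 and 102 against 13.1, 7.6 and 10.1 in H4WT, and the 8 H3 arrays lay between 2.4 and 7.1. It rose by 2.36 ± 0.18 (adjusted p = 1.27e-06), and 3815_i_at, with 155, 133 and 137 against 3.1, 8.2 and 9.8, by 2.74 ± 0.28 (adjusted p = 2.39e-05). The probe set 3776_i_at, with the ID just below 3777_f_at, rose in H4del by 2.93 ± 0.36 (adjusted p = 0.000132). For 7054_i_at, 3486_at and 3815_i_at the arrays of the matching wild type all lay under the added 16.9, so the size of the log2 difference depends on that value. The other named rises below the filter were 10008_at, 10550_at, 7889_at and 2960_at in H3del and 5834_s_at and 10808_at in H4del, from 1.99 to 2.80.

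None of the 5 brightest members passed the threshold. The probe set 9183_s_at had signals from 16948 to 27419.9 over the 14 arrays, and its differences of 0.25 ± 0.13 in H3del and -0.10 ± 0.16 in H4del did not pass the threshold (limma adjusted p = 0.34 and 0.699). No call was made either for 3798_s_at, 3529_f_at, 3788_f_at and 8756_i_at, whose differences ran from 0.07 to 0.17 in H3del and from -0.34 to 0.49 in H4del.

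In 3 lists of annotated genes that make, stop or remove non-coding RNA, none passed the threshold in H3del, and the few that passed in H4del all fell. Of 19 listed factors that suppress cryptic transcription 18 were tested: in H4del EAF3, a subunit of the Rpd3S deacetylase complex, fell by 1.19 ± 0.20 and RPD3, its catalytic subunit, by 0.88 ± 0.22 (limma adjusted p = 0.00167 and 0.0132), and none rose. Of 18 listed factors of non-coding RNA decay, all tested, DCP1, LRP1, MPP6 and PAP2 fell in H4del, by 0.75 to 0.99, and none rose. Of 21 subunits and factors of RNA polymerase III, which makes transfer RNA and 5S ribosomal RNA, RPC31 and TFC8 fell in H4del by 0.61 and 0.69, and none rose. Of all tested probe sets 9.67% fell in H4del, and 2 of 18 and 2 of 21 lie near that share. The lists' medians in H4del were -0.06, -0.19 and -0.38, beside -0.08 over all tested probe sets. Of the 29 tested small nucleolar, small nuclear and ribosomal RNA genes 22 rose in H4del and 3 in H3del (RDN18-1, RDN5-1 and SNR9), with medians of 1.41 and 0.38. Of all tested probe sets 7.79% rose in H4del and 5.21% in H3del. Of 19 listed mitochondrial genes 2 were tested, COX1 and OLI1, the latter by another probe set than the one next to 3994_at, and both fell in H4del and neither passed in H3del. Each listed gene was counted by 1 probe set, and others of the same gene can differ. In H4del the counted probe set of RDN37-1 had a difference of 0.64, which did not pass, and another had 2.23. The counted probe set of COX1 had -6.65 and another had -1.08.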

How the data were processed

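The arrays were Affymetrix yeast S98 arrays hybridized with phycoerythrin-labelled material from total RNA. The values are signal intensities, which the authors deposited in a table on a linear scale; the submitters' processing notes name MAS5, and its version was not given. On each array the mean after trimming 2% at each end was 1501, so the deposited intensities carry a common scaling, and no background correction or normalization was added. Raw scanner intensities were not analysed here.

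Members are the probe sets that the platform annotation pairs with no gene. Members, lists and comparisons were chosen with earlier results of these data known. Genes of other probe sets were named through that annotation and the RefSeq table of assembly R64.

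Signals were taken as log2(signal + 16.9) and fitted with limma 3.58.1 in R 4.3.3 (lmFit and eBayes with trend), with 4 groups, all 14 arrays and 10 residual degrees of freedom. Probe sets under the 30th percentile of mean log2 signal were left out, and p-values were adjusted by Benjamini-Hochberg over the 6492 that remained, with a threshold of 0.05. A second fit covered all 9275. Named members were, per deletion, the 10 largest differences each way among those called with no overlap between arrays, 5 each way between the wild types, 3 each way for the difference between the effects, the 5 largest rises below the filter per deletion and the 5 brightest. The profile most like a member was the tested annotated probe set with the smallest mean absolute difference over the 14 arrays. The fit was tested on simulated data with known changes. Alternatives were other offsets, filters and scalings, blocks, plain _at probe sets alone and arrays left out.

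Whether replicate numbers mark pairs cannot be told from the correlations of deviations from the group means. These were 0.26 to 0.64 in the 4 H3 pairs of equal number and 0.28 to 0.52 in the 3 H4 pairs. In the 3 pairs of the same histone and day but different numbers they were 0.32 to 0.54. Arrays of different groups hybridized on the same day correlated at 0.26 to 0.64 too, so number and day are largely the same. No 2 arrays shared more than 0.343% of their values.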

Additional observations from a re-analysis of the deposited data

Results flagged for a closer look

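In 5 of 122 groups of 4 arrays tested, which are the H3del and H3WT arrays for each of 60 named probe sets and for the members' median, 1 array lay far from the other 3, and chance flags about 1 in 20 groups. These were 8752_f_at on H3del replicate 4, with a signal of 828.6, 10008_at on H3WT replicate 1, with 32.4, 2960_at on H3WT replicate 1, with 13.4, 3815_i_at on H3del replicate 3, with 0.8, and 10808_at on H3WT replicate 1, with 100.7. The effects of the deletions differed by the test of that difference (limma, adjusted p under 0.05) for 7 members with a higher and 27 with a lower H3 effect, of which the 3 largest each way are given here. The H3 effect minus the H4 effect was 6.30 on the log2 scale for 3994_at, 1.87 for 9220_r_at and 1.62 for 3407_at. It was -3.45 for 9261_at, -3.05 for 5863_at and -2.36 for 3463_at.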

How the results depend on the processing

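No named call changed direction under these settings, but some medians over all members changed sign. The median over all members in H3del, 0.15 as deposited, was -0.00165 under quantile normalization and 0.0117 scaled to the hybridization controls. In H4del the median of 0.37 was 0.48 with an offset 4 times smaller, 0.21 with one 4 times larger, 0.12 under quantile normalization, 0.57 centred on the annotated probe sets and 0.18 scaled to the hybridization controls. Between the wild types it went from -0.11 to 0.11 with the last scaling, and for the difference between the effects from -0.20 to -0.31 with the filter at the 50th percentile and to -0.39 when centred.

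Counts are given as higher and lower calls. Without the filter, H3del had 166 higher, H4del 424 higher, the wild types 60 lower, and the difference between the effects 13 higher and 58 lower. With the filter at the 50th percentile these were 13 and 11 in H3del, 105 higher in H4del, 5 and 6 between the wild types and 10 lower for the difference between the effects. The replicate block, which takes arrays of equal number as pairs, gave 93 and 34 in H3del and 335 and 64 in H4del. It gave 18 and 41 between the wild types and 31 and 118 for the difference between the effects. All 56 named calls tested under it remained. The day block gave 105 and 43 in H3del, 61 lower in H4del and 35 and 103 for the difference between the effects. Quantile normalization gave 5 higher between the wild types and 55 lower for the difference between the effects, and centring gave 16 lower in H4del, 4 higher between the wild types and 55 lower for that difference. Plain _at probe sets alone gave 72 higher in H4del, 5 higher between the wild types and 15 lower for the difference between the effects, from fewer probe sets.

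Scaling to the hybridization controls and leaving out the day with all groups were chosen after seeing the data. The first gave 10 and 6 in H3del, 18 and 8 in H4del, 0 and 3 between the wild types and 1 and 2 for the difference between the effects. Without that day there were 28 lower in H3del, 53 lower in H4del, 22 and 44 between the wild types and 19 and 75 for the difference between the effects. The cause of these shifts was not tested.

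With each array left out in turn, H3del had 42 to 67 higher and 11 to 21 lower, H4del 106 to 250 and 15 to 44, the wild types 2 to 9 and 14 to 27, and the difference between the effects 5 to 11 and 13 to 46. The medians ran from 0.14 to 0.18, from 0.31 to 0.45, from -0.17 to -0.07 and from -0.26 to -0.13 in the same order. The 8 higher between the wild types fell to 5 or fewer without replicate 1, 2 or 4 of H3del or H3WT or replicate 1 or 2 of H4WT, and the 26 lower to 14 without either of those H4WT arrays. The 7 members with a higher H3 effect became 11 without H4del replicate 3.

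The 3 or 4 arrays per group limit the precision, and 1639 members lie under the filter, where the offset sets much of a log2 difference.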
